A study of Mus musculus with 2 samples.

Results

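Desmosomes are the spot-like junctions that fasten neighbouring epithelial cells to each other, and 10 genes that encode their core parts were followed in RNA from the newborn mouse stomach. The genes were listed by symbol and role, but earlier results of these data were known when they were chosen. They are the desmosomal cadherins Dsg2, Dsg3, Dsc2 and Dsc3, the plakin Dsp, the armadillo protein gene Jup, the plakophilins Pkp1, Pkp2 and Pkp3, and Perp. All 10 were found among the 43346 Ensembl genes of the deposited tables. The study measured total RNA from the whole stomach of 2 mouse pups of strain B6NCrl on the day of birth (age 0 days), 1 library per pup. Both pups came from 1 pregnant dam, no treatment or mutation is labelled, and sex was not collected. The 2 stomachs form 1 group with n = 2, so the data give levels and the difference between 2 littermates, and no test between conditions is possible.

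In a desmosome, the extracellular parts of desmogleins and desmocollins bind their counterparts on the next cell. Inside the cell their tails hold plakoglobin (the product of Jup) and plakophilins, and these hold desmoplakin (the product of Dsp), which grips the keratin filaments. Dsg2, Dsc2 and Pkp2 are known from simple epithelia and heart muscle as well as from stratified epithelia, while Dsg3, Dsc3 and Pkp1 are typical of stratified epithelia. The mouse stomach holds both kinds of lining: a stratified squamous forestomach and a glandular part with a simple epithelium.

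Depth was 51524479 expected counts for pup 1 and 49983574 for pup 2, and the 10 genes took 0.277% and 0.286% of them. Levels are given as TPM, a length-corrected share of the transcripts in a library. Comparing TPM between genes depends on the annotated transcripts and their lengths, as described for Pkp3 and Dsg3 below. Each TPM comes with a deposited credibility interval, called its bounds here, which covers the error of quantification in that library only. No source used here states the level of that interval, so bounds that lie apart carry no stated confidence. Markers of both linings were abundant. The squamous list (Krt5, Krt14, Krt4, Krt13, Trp63, Krtdap and Sbsn) was detected in full, as was the gland list (Tff1, Gkn1, Gkn2, Atp4a, Atp4b and Pgc), with summed TPM of 18259 and 19216 against 23843 and 24147 in pups 1 and 2. Since whole stomachs were used, fewer cells of a type and less RNA per cell cannot be told apart in any level below.

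All 10 genes were detected (TPM no lower than 1 in either pup), where 61.2% of 21474 protein-coding genes were. Their levels spanned 83.3-fold from Perp to Pkp2, and the 9 other than Pkp2 lay above the median of the 13138 detected protein-coding genes, which was 13.04 ± 0.251 (SD, n = 2). Both counts depend on which genes were listed. Of the 6 other desmosomal genes 4 were detected, and the median TPM of the 6 was 3.6 and 3.34 in pups 1 and 2. From the highest the order of the 10 genes was Perp, Jup, Pkp3, Dsc2, Dsp, Pkp1, Dsg2, Dsg3, Dsc3 and Pkp2. In 6 of the 9 pairs of neighbours in that order, both pups' bounds of the higher gene lay above both pups' bounds of the lower one. The other 3 pairs, Dsg2 with Dsg3, Dsg3 with Dsc3 and Dsc3 with Pkp2, did not meet that condition over both pups. Within single pups, Dsg2 lay above Dsg3 in pup 2 (given with those genes) and Dsc3 (13.5 to 14.5) above Pkp2 (10.02 to 11.2) in pup 1.

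**Figure D1:**
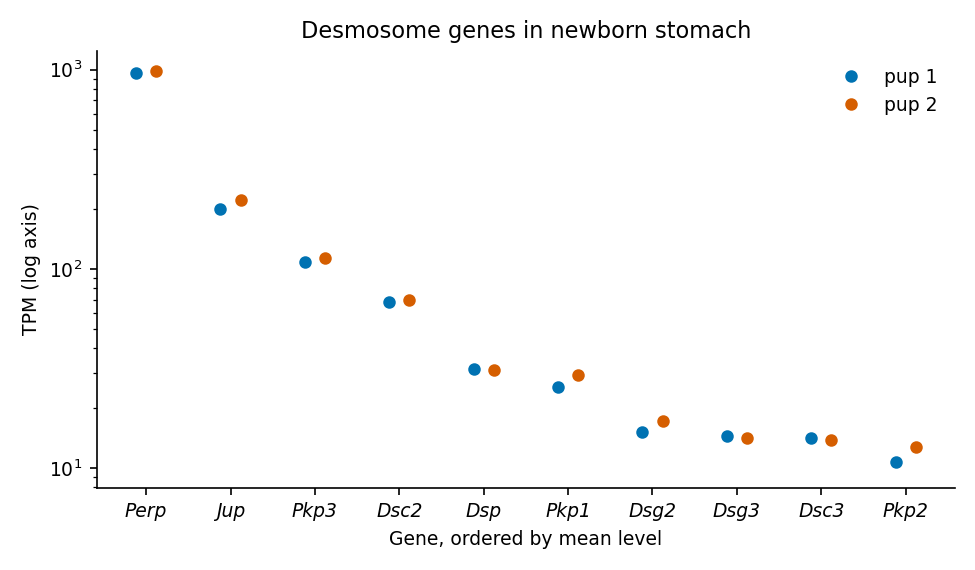
TPM (log axis) of the 10 desmosome genes in pup 1 (blue) and pup 2 (orange), ordered by the mean of both pups, with the deposited bounds as shaded bars that are mostly smaller than the points. Perp stands at 965 and 989, far above Jup at 199.9 and 222, and the last 4 genes lie close together between 10.7 and 17.2.

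Perp encodes a small membrane protein of desmosomes that is a known target of the transcription factors p53 and p63. Pup 1 stood at 965.2 and pup 2 at 988.6 (977 ± 16.5, SD, n = 2), with 71933 and 70792 counts behind these levels. This put it at rank 111 of the detected protein-coding genes, and it alone held 65.9 ± 0.721% of the summed TPM of the 10 genes. Perp (ENSMUSG00000019851) lies on the plus strand of chromosome 10 (mm10, 18845020 to 18857073) and has 1 transcript in the deposited tables. In both pups its TPM lay above its own upper bound (959 and 982), and the bounds lay around the posterior mean estimate, which was 952 and 974. Of the 13951 features with a mean count of at least 100, 220 in pup 1 and 231 in pup 2 had a TPM above their upper bound.

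Jup encodes plakoglobin, an armadillo-repeat protein that binds the tails of desmosomal cadherins and also joins adherens junctions. Its TPM was 199.9 for pup 1 against 221.7 for pup 2 (211 ± 15.4), resting on 24586 and 26218 counts. Its level was 1.36 ± 0.0407 times that of Ctnnb1, the related beta-catenin gene, which stood at 150 and 160. Set against the 4 desmosomal cadherin genes followed here, Jup RNA was 1.86 ± 0.105 times the summed TPM of Dsg2, Dsg3, Dsc2 and Dsc3. The other desmosomal cadherin genes and Cdh1, the E-cadherin gene, were left out of that sum. Jup (ENSMUSG00000001552) lies on the minus strand of chromosome 11 (100368958 to 100397763).

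Dsp encodes desmoplakin, the link between the junction and keratin filaments. Its TPM was 31.29 in pup 1 and 30.97 in pup 2 (31.1 ± 0.226), so that there was 6.77 ± 0.544 times as much Jup RNA per length. Reads also scale with transcript length, and Dsp had 10403 and 9779 counts, or 7.07% of the reads of the 10 genes against 2.10% of their TPM. Ppl, which encodes the related plakin periplakin, was above it at 52.2 and 55.9, and the envoplakin gene Evpl was below it at 22.7 and 25.8. Dsp (ENSMUSG00000054889) lies on the plus strand of chromosome 13 (38151294 to 38198577). Plec, the gene of plectin, a plakin of hemidesmosomes and of many other cells, stood at 37.4 and 26.02.

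Desmoplakin is known in 2 main splice forms that differ in the length of the central rod, and both were present. Dsp-201 (ENSMUST00000124830) codes for 2883 amino acids and Dsp-202 (ENSMUST00000127906) for 2284, by the coding lengths in GENCODE M21. The difference is 1797 coding bases at the end of exon 23 (chromosome 13, 38191859 to 38193655), which Dsp-202 removes with the intron. The coding bases at that point are shown because they are all that separates the 2 reading frames; lower case marks the shared end and capitals mark what follows it, on the plus strand of mm10, with shared bases at chr13:38191814-38191858, the longer form continuing at chr13:38191859-38191903 and the shorter one at chr13:38194696-38194740.
Dsp-201: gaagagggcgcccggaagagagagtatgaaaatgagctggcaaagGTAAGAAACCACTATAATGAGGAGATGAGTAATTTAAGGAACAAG
Dsp-202: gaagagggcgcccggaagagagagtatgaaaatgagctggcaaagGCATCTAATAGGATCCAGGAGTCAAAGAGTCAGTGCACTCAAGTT

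The short-rod form made up most Dsp RNA. Dsp-202 held 78.8% of the gene's TPM in pup 1 and 82.6% in pup 2, and Dsp-201 held 21.2% and 17.1%. The TPM of Dsp-202 was 24.7 and 25.6, with bounds that overlapped between the pups. That of Dsp-201 was 6.63 in pup 1 (bounds 6.04 to 7.03) and 5.29 in pup 2 (4.83 to 5.69), which did not overlap. Of the 18 desmosome gene transcripts with a mean count of at least 100, Dsp-201 alone was lower in pup 2 with bounds apart, a share close to the 5.99% of all 22395 such transcripts. The main transcripts of Jup, Perp, Pkp1, Pkp2 and Dsg2, 5 of the 18, were higher with bounds apart. Over all such transcripts 14.5% had bounds apart in either direction, a share that includes the 5.99% that were lower in pup 2. Each of these 5 holds nearly all of its gene's TPM, so they repeat the differences of those genes. The deposited length of Dsp-201 was 9538 bases and its length in GENCODE M21 was 9592.

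The plakophilins are armadillo-repeat proteins that strengthen the plaque by binding cadherins, plakoglobin and desmoplakin, and Pkp3 was the highest of them. Pkp3 stood at 107.7 in pup 1 and 112.8 in pup 2 (110 ± 3.61), Pkp1 at 25.62 and 29.36 (27.5 ± 2.64), and Pkp2 at 10.73 and 12.72 (11.7 ± 1.41). Pkp3 thus held 73.8 ± 1.37% of the summed TPM of these 3 genes, Pkp1 18.4 ± 0.827% and Pkp2 7.83 ± 0.540%. Pkp1 RNA stood at 2.35 ± 0.0562 times Pkp2 RNA. Pkp4, a related gene whose product also sits at other cell contacts, stood at 14.5 in both pups, between Pkp1 and Pkp2. Pkp3 (ENSMUSG00000054065) lies on chromosome 7 (141078218 to 141090510), Pkp1 (ENSMUSG00000026413) on chromosome 1 (135871395 to 135919207) and Pkp2 (ENSMUSG00000041957) on chromosome 16 (16213318 to 16272712).

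The level of Pkp3 depended on short transcripts. A 462-base transcript (ENSMUST00000160356), which was not matched in GENCODE M21, held 30.6% and 28.3% of the TPM of Pkp3 but 6.16% and 5.59% of its reads, because TPM divides reads by length. Over the 4 transcripts that GENCODE M21 calls protein-coding, the TPM of Pkp3 was 65.4 in pup 1 and 68.6 in pup 2 (67.0 ± 2.26). On that scale Pkp3 no longer stood above Dsc2 (68.19 and 69.52), while it was still more than Pkp1 in both pups. Its share of the plakophilins was also smaller, as Pkp1 stood at 27.4 and Pkp2 at 10.8 (means of both pups). The same restriction left the other 9 genes within 1 SD of their levels.

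The 2 main protein-coding transcripts of Pkp3 have alternative first exons in the annotation, and where the RNA begins was not measured. Pkp3-201 (ENSMUST00000066873) held 43.3% of the gene's TPM in each pup and Pkp3-202 (ENSMUST00000106039), which starts 1542 bases upstream, 14.1% and 14.8%. Of the 2 together, Pkp3-201 made up 75.0 ± 0.594%, and its bounds lay above those of Pkp3-202 in both pups. The coding starts are shown because they make the proteins differ at their first residues, with 797 and 822 codons in all; capitals mark the bases of each form's own first exon from its start codon (36 and 111 bases), lower case the shared bases at chr7:141079906-141079935, on the plus strand of mm10. The capitals lie at chr7:141079870-141079905 for Pkp3-201 and chr7:141078324-141078434 for Pkp3-202.
Pkp3-201: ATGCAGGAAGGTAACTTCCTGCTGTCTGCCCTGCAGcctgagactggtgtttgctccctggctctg
Pkp3-202: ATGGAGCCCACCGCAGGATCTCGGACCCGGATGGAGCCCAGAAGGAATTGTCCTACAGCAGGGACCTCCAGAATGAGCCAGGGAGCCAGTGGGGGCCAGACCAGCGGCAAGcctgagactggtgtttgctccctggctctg

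**Figure D2:**
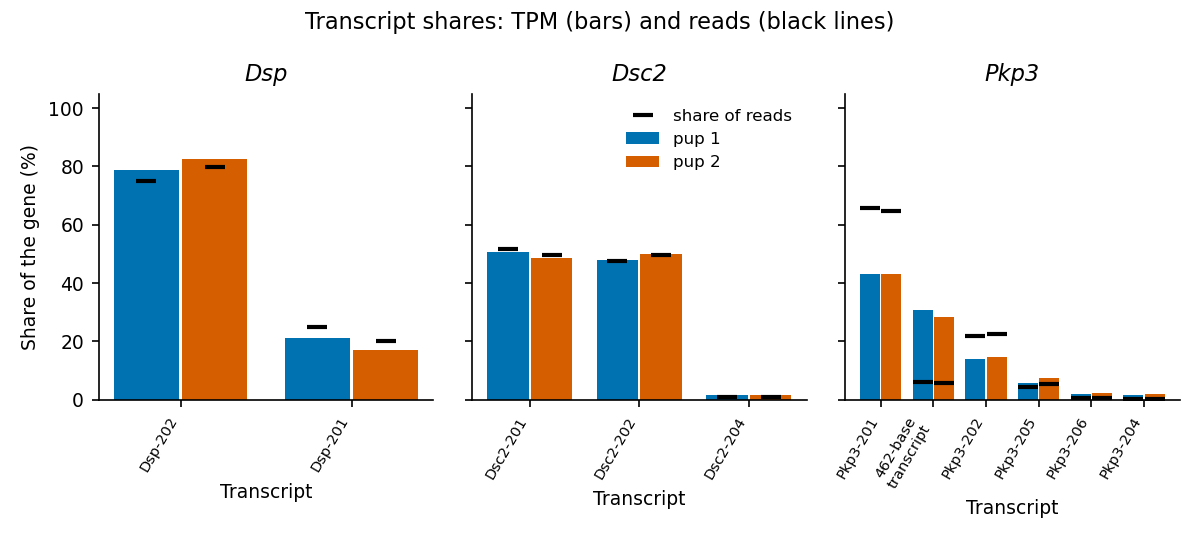
Share of transcripts in their gene's TPM (bars, in percent, with pup 1 blue and pup 2 orange) and in its reads (black lines) for Dsp, Dsc2 and Pkp3. Transcripts with the smallest shares are not drawn. Dsp-202 leads Dsp, the 2 main Dsc2 transcripts stand level, and the 462-base Pkp3 transcript has a far higher share of TPM (30.6% and 28.3%) than of reads (6.16% and 5.59%).

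The desmocollins were dominated by Dsc2. It stood at 68.19 in pup 1 and 69.52 in pup 2 (68.9 ± 0.940), and Dsc3 at 14.14 and 13.89 (14.01 ± 0.177). Dsc2 made up 82.8% of the summed TPM of both in pup 1 and 83.3% in pup 2, which is 4.91 ± 0.129 times as much Dsc2 as Dsc3. Dsc1, a desmocollin of the upper layers of keratinised epithelia, added 3.30 and 3.13, or 3.74 ± 0.168% of the TPM of the 3 genes.

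Desmocollins are made in a long a form, whose tail binds plakoglobin, and a shorter b form, which arises by inclusion of a small exon. The Dsc2 transcripts split evenly between them. Dsc2-201 (ENSMUST00000039247), which includes a 46-base exon (exon 16) and has 848 codons, held 50.6% of the TPM of Dsc2 in pup 1 and 48.4% in pup 2. Dsc2-202 (ENSMUST00000075214), which lacks that exon and has 902 codons, held 47.8% and 49.8%. The bounds of the 2 transcripts overlapped in each pup, so neither form led, and the first-ranked transcript changed between the pups in this gene only of the 10.

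The desmogleins were lower, and no single gene dominated them. Dsg2 stood at 15.25 in pup 1 and 17.20 in pup 2 (16.2 ± 1.38), and Dsg3 at 14.52 and 14.15 (14.3 ± 0.262). Dsg2 made up 51.2% and 54.9% of the summed TPM of both, and in pup 1 the bounds of the 2 genes overlapped (14.7 to 15.9 for Dsg2 and 13.7 to 14.9 for Dsg3). In pup 2 they did not (16.5 to 17.9 and 13.4 to 14.5). The transcript of Dsg3 is 4108 bases long in the deposited tables and 6212 in GENCODE M21, and a TPM depends on that length.

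Desmogleins of the upper layers of keratinised epithelia were also present. Dsg1b stood at 8.37 and 7.61 and Dsg1a at 3.90 and 3.55, together 11.7 ± 0.785, with bounds apart in each pup (7.80 to 8.73 against 3.58 to 4.12 in pup 1, and 7.05 to 7.96 against 3.24 to 3.76 in pup 2). The genes are known as close duplicates, and how reads common to both were divided was not tested. Dsg1c had 4.57 and 2.27 counts and Dsg4, a desmoglein of hair follicles, 1 and 2 counts, so that Dsg4 in both pups and Dsg1c in pup 2 lay under a floor of 3 counts, the limit that a count of 0 allows. Over all measured members of both families, desmocollin RNA was 2.03 times desmoglein RNA in each pup (86.1 ± 0.643 against 42.3 ± 0.318). Cdh1, the E-cadherin gene of adherens junctions, stood at 100.9 and 112.7, close to the 112 and 115 of Dsg2, Dsg3, Dsc2 and Dsc3 together.

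**Figure D3:**
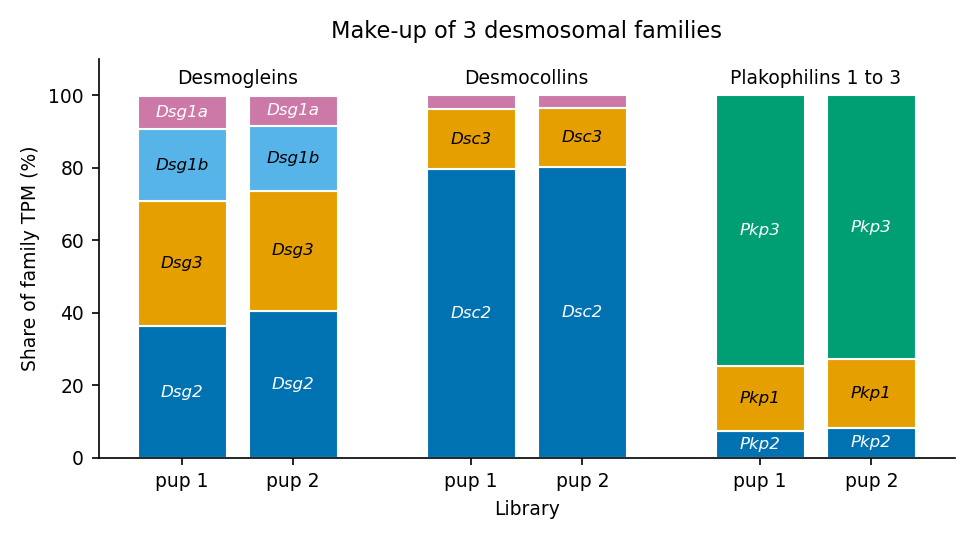
Make-up of the desmogleins, the desmocollins and plakophilins 1 to 3 as percent of each family's TPM, 1 bar per pup; Dsg1c and Dsg4 are too low to show, and the unlabelled top segment of the desmocollin bars is Dsc1. Dsc2 holds 79.6% and 80.3% of the desmocollins and Pkp3 74.8% and 72.8% of the plakophilins, while the desmogleins are spread over 4 genes. The share of Pkp3 counts all its transcripts, the short ones included.

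The desmosomal cadherin genes lie side by side on chromosome 18, within 644 kb (19960930 to 20604521), a stretch with 9 protein-coding genes, all of them desmosomal cadherins. Read along the chromosome, the desmocollins came first, on the minus strand, and the desmogleins followed, on the plus strand. Dsc3 (ENSMUSG00000059898) lies at 19960930 to 20002351, Dsc2 (ENSMUSG00000024331) at 20030633 to 20059554, Dsg3 (ENSMUSG00000056632) at 20510274 to 20547459 and Dsg2 (ENSMUSG00000044393) at 20558074 to 20604521. The 4 genes above a TPM of 10 were the outer ones: Dsc3 and Dsc2 at the start and Dsg3 and Dsg2 at the end. The 5 genes between them stood at 8.37 or less, and neighbours could differ widely, as Dsg4 (0.01 in both pups) lies next to Dsg1b and Dsg3.

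**Figure D4:**
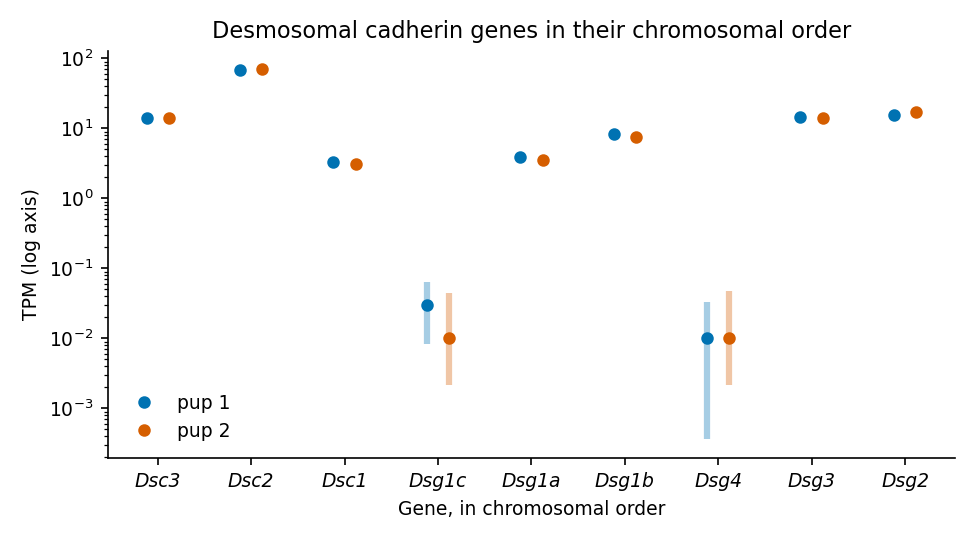
TPM (log axis) of the 9 desmosomal cadherin genes in chromosomal order, not to distance, for pup 1 (blue) and pup 2 (orange) with deposited bounds as shaded bars. The outer 4 genes lie between 13.9 and 69.5 and the inner 5 at 8.37 or below, with Dsg1c and Dsg4 near 0.

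Outside Dsc2, Dsp and Pkp3, 1 transcript held nearly all of the TPM of each gene. Dsg3, Dsc3 and Perp have a single transcript in the deposited tables. Of the 7 genes with several transcripts, 4 had a main transcript with at least 90% of the TPM, where 27.9% of 7078 protein-coding genes with several transcripts and a TPM of 5 or more did. These were Dsg2 (99.8 ± 0.0141%), Pkp1 (99.2 ± 0.205%), Jup (92.7 ± 0.354%) and Pkp2 (92.4 ± 1.37%). Transcripts annotated as retained introns took 6.63% and 8.57% of the TPM of Pkp2 in pups 1 and 2.

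The pups had close levels of all 10 genes. A difference was called where the TPM differed at least 2-fold, the bounds did not overlap and the mean count was at least 100. By that rule none of the 10 genes differed, as against 59 of 13951 features (0.423%), of which 0.301% were higher and 0.122% lower in pup 2. Ratios ran from -0.03 (Dsg3) to 0.23 (Pkp2), as log2((TPM of pup 2 + 1)/(TPM of pup 1 + 1)), a scale that understates differences at low levels. Their median was 0.05, beside 0.03 over all detected protein-coding genes.

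Without the 2-fold limit, 5 of the 10 genes had bounds apart, all higher in pup 2, where 21.2% of all 13951 features had bounds apart, 12.9% higher and 8.33% lower in pup 2. They were Pkp2 (log2 ratio 0.23), Pkp1 (0.19), Dsg2 (0.16), Jup (0.15) and Perp (0.03). Per library total, the reads of Pkp2 were 1.17 times as many in pup 2 (95% exact interval 1.08 to 1.26), those of Pkp1 1.13 times (1.09 to 1.18), those of Dsg2 1.12 times (1.07 to 1.17) and those of Jup 1.10 times (1.08 to 1.12), with intervals that cover counting error only. Perp turned to -0.011 with TMM-scaled and -0.0081 with DESeq2-scaled counts. Dsc2 (0.03) turned to -0.019 and -0.017, and to -0.00026 with the median ratio set to 0. By TPM 7 of the 10 genes were higher in pup 2, beside 58.3% of the detected protein-coding genes, but 5 were with either count scaling. Dsg3, Dsc3 and Dsp lay between -0.035 and -0.014 with overlapping bounds. The reads of Dsp per library total were 0.969 times as many in pup 2 (0.943 to 0.996), an interval below 1, and its log2 ratio was -0.077 with TMM-scaled counts. Those of Dsg3 were 0.965 times as many (0.911 to 1.02) and those of Dsc3 0.973 times (0.924 to 1.02). Of the genes typical of stratified epithelia, Pkp1 was higher in pup 2 with bounds apart, and the bounds of Dsg3 and of Dsc3 overlapped between the pups. Of the other desmosomal genes, Dsg1a, Dsg1b, Dsc1 and Pkp4 were lower in pup 2 by TPM and by both count scalings, with overlapping bounds. So was Dsg1c, which lay near the floor.

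**Figure D5:**
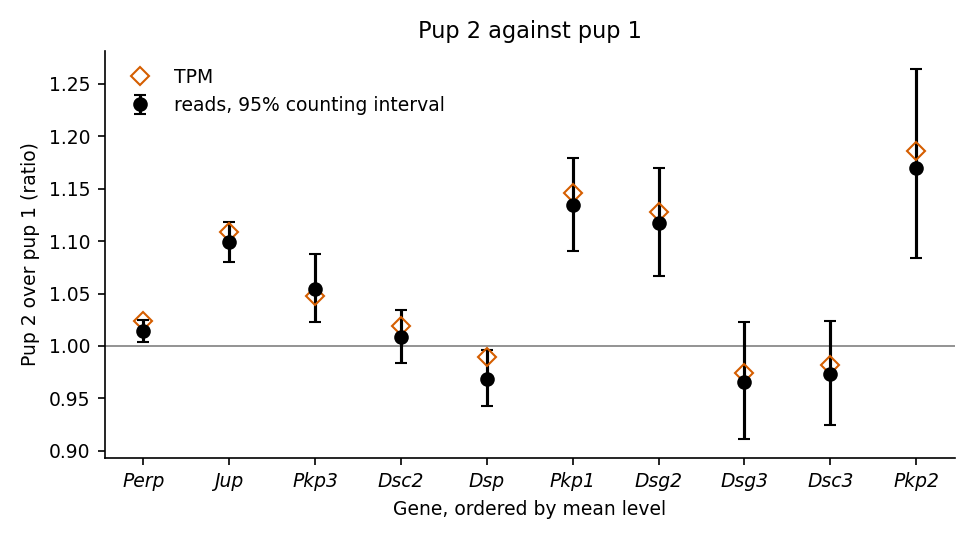
Pup 2 over pup 1 for the 10 genes: reads per library total with 95% exact counting intervals (black) and TPM (open orange diamonds), with a grey line at equal levels. Jup, Pkp1, Dsg2 and Pkp2 lie between 1.10 and 1.17 in reads, and Dsg3, Dsc3 and Dsp lie just below 1.

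Lists of cell markers moved between the pups as well, and their part in these small differences was not tested. By TPM all 8 stratified keratin genes were higher in pup 2 (summed TPM 8372 and 9329 in pups 1 and 2), 7 of them with bounds apart, and so were all 5 simple keratin genes (3981 and 4178). With TMM-scaled counts Krt14 and Krt8 turned lower in pup 2, and with DESeq2-scaled counts Krt14 did. All 5 smooth muscle genes were lower (7871 and 6348), by TPM and by both count scalings. The epidermis list (Lor, Flg2, Krt1, Krt10 and Krt2) summed to 1725 and 2271; Lor, Krt1 and Krt10 were higher in pup 2 with bounds apart, those of Flg2 overlapped, and Krt2 had 1 and 2 counts, under the floor. Heart muscle is rich in Dsg2, Dsc2 and Pkp2, and 4 of the 6 genes on its marker list were detected, where 61.2% of all protein-coding genes were. The list summed to 186 and 198, of which Myl7 made up 126 and 128. Tnnt2 stood at 31.0 and 34.0, Tnni3 at 21.4 and 27.1 and Myl4 at 5.89 and 8.22. Nppa stood at 0.63 and 0.26. Myh6 stood at 0.09 and 0.05, under its own lower bounds (0.111 and 0.110). Mesothelium summed to 122 and 111, endothelium to 78.1 and 81.4 and simple epithelium to 2737 and 2832. The liver list (Alb, Afp, Ahsg and Fgb) summed to 68.0 and 130, and all 4 genes were higher in pup 2 with bounds apart. Afp, the fetal serum protein gene (20.8 and 47.1, log2 ratio 1.15), and Fgb, a fibrinogen chain gene (2.38 and 5.21, log2 ratio 0.88), passed the 2-fold rule, and no other gene of the marker lists did.

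The lists of partners and neighbours of the desmosome held 53 genes, and all were detected except Dsg1c and Dsg4. None passed the 2-fold rule, for which Dsg1c and Dsg4 had too few counts. Keratins, the filaments that desmosomes anchor, were the most abundant. Krt4 (3988 ± 207), Krt13 (2575 ± 237) and Krt15 (721 ± 98.9) led the stratified ones, and Krt8 (1804 ± 38.2), Krt19 (1364 ± 62.9) and Krt18 (648 ± 23.2) the simple ones. Desmin (Des), which desmosomes anchor in heart muscle and which smooth muscle also makes, stood at 250 and 191, and vimentin (Vim) at 290 and 250. In the adherens junction list, with all 9 genes detected, Ctnnb1 (155 ± 6.70), Cdh1 (107 ± 8.34) and the nectin-binding Afdn (100.4 ± 1.06) led.

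Genes of the hemidesmosome, which fastens basal cells to the basement membrane, were lower: Itga6 (45.9 ± 0.240), the laminin chain Lamb3 (29.7 ± 1.15) and the tetraspanin Cd151 (18.99 ± 2.43) led, with all 7 detected. All 5 plakins were detected, led by Ppl (54.1 ± 2.61), Plec (31.7 ± 8.03) and Evpl (24.3 ± 2.18). Among epithelial transcription factors, Grhl3 (45.4 ± 0.509) and Grhl1 (24.7 ± 0.226), of the grainyhead family, and Ovol1 (22.4 ± 1.11) led, and Trp63, the p63 gene of stratified epithelia, stood at 18.5 and 20.9. Of the regulators, the sheddase Adam10 (41.3 ± 0.0849) was highest, before Adam17 (12.4 ± 0.502) and Kazn (10.6 ± 1.32).

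Genes that overlap the desmosome genes had few reads. The annotation places Gm10129 over Dsp, Gm36938 over Pkp1 and the antisense RNA Gm16090 over Dsg2, and they had 12.7 and 8.65, 3 and 5, and 4.32 and 3.24 counts in pups 1 and 2. Gm10129 and Gm16090 lie on the strand opposite their desmosome gene, and Gm36938 on the same strand as Pkp1. No source used here states whether counting used strand, so reads of the opposite-strand pairs cannot be told apart. Strand would not separate Gm36938 from Pkp1.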

How the data were processed

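The libraries were made from 10 ng of total RNA above 200 nucleotides per stomach, and mirVana extraction and the manual of the SMARTer Ultra Low RNA kit are cited, per the labels. No p-values were computed. Genes and transcripts were quantified by the authors on mm10 with GENCODE M4, per the deposited text; which aligner and quantifier they ran is not given in the sources at hand. In the deposited tables an expected count is an estimated number of reads, unscaled, with shared reads divided among features. The deposited TPM is corrected for effective length and scaled over 69691 features, tRNA entries and spike-ins included. The percent values (isoform share) in the deposited transcript tables are shares of a gene's TPM.

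GENCODE M21, also on mm10, gave symbols, transcript types, exons and sequences, joined by unversioned ID (42462 of 43346 genes). Calls were computed with pandas 2.3.3 and exact intervals with scipy 1.17.1. TMM factors came from edgeR 4.0.16 and size factors from DESeq2 1.42.0, over genes with a mean count of at least 10 for the latter, on rounded counts of Ensembl genes. The call rule and the scaling were tested on simulated counts with counting error and large planted changes only. That setting has no variation between pups and did not use the deposited bounds. PCR copies of a molecule count as separate reads, so intervals and floors cover counting error only.

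The genes and lists were chosen with earlier results of these data known. Named were the 10 genes, all other desmosomal genes, the 3 highest of each further list, any list gene (marker lists included) that passed the call rule and any gene overlapping a member. Trp63 and single marker genes were named after their values were seen. With 2 libraries no likeness of pattern between genes could be measured. Alternatives were another estimate, scaling, pseudocount, limit or set of transcripts, and each pup alone; the count scalings of the lists were added after the data were seen.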

Additional observations from a re-analysis of the deposited data

How the results depend on the processing

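Of 173 recomputed values, 142 stayed within the spread of the pups or, for ratios, within the counting interval, or for counts within 1.5 times, and the sign of a log2 ratio turned only for Perp and Dsc2, neither of them a called difference. Each pup alone left every level, share and main-transcript share within 1 SD, which holds by construction with 2 samples. Either single-pup setting gave 21 of the 142 values. TPM over Ensembl genes only, which barely changes any level, gave 10 more. No paired analysis was possible because the 2 libraries belong to 1 group. With posterior mean TPM, Dsp stood at 30.8 and Dsc3 at 13.8, and the main-transcript share was 92.2% for Jup, 98.6% for Pkp1, 42.6% for Pkp3 and 98.1% for Dsg2. With protein-coding transcripts only, a choice made for levels and for the Pkp2 share after the data were seen, Pkp3 stood at 67.0, the Pkp2 share of the plakophilins at 10.3%, and the main-transcript share at 99.5% for Jup, 99.6% for Pkp1, 100% for Pkp2 and 71.2% for Pkp3. These follow from removing transcripts from the sum. With expected counts, not divided by length, the shares of Dsg2, Dsc2 and Pkp2 in their families were 61.5%, 80.7% and 9.12%. The log2 ratios with TMM-scaled and DESeq2-scaled counts were -0.011 and -0.0081 for Perp, 0.10 and 0.11 for Jup, -0.077 and -0.074 for Dsp and -0.019 and -0.017 for Dsc2; with the median ratio set to 0 they were 0.0067 for Perp and 0.12 for Jup. The cause was not tested. The number of desmosome genes that differed between pups was 0 at every limit except with no fold minimum, where it was 5. Over all features it was 228 at 1.5-fold, 13 at 3-fold, 2955 with no fold minimum, 202 with no count filter and 10 with a mean count minimum of 1000, by construction of the limits. All 10 genes were detected at a TPM of at least 0.1, 5 or 10.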
